A study of Mus musculus with 20 samples.

Results

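The depot dependence of the Olfm2 knockout effect was measured as a difference of differences, the knockout minus wild-type change in adipocytes of the depot labelled g minus the same change in the depot labelled sc. All 20 of the 20 arrays of the series entered, chosen by depot and genotype from the sample titles. Per the labels, the cells were mouse fat cells that came from adipose tissue and were matured in culture. Total RNA of each sample was read on a whole-transcript expression array. There were 5 wild-type and 5 Olfm2 knockout samples in each depot, which gives the groups sc wild type, sc knockout, g wild type and g knockout. The labels do not spell out sc and g, and they give no age, sex or treatment and no account of how the knockout allele was made. They also do not say whether the 5 samples of a group came from separate cultures, and a p-value here reflects only how much these samples vary, which may be technical variation.

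White fat lies in depots that differ in embryonic origin, in gene expression and in the immune cells they hold, and some of these differences persist when precursors are matured in culture. Precursors leave the cell cycle as they become fat cells and then switch on the machinery for making, storing and releasing lipid. Olfm2 encodes olfactomedin 2, a secreted glycoprotein of the olfactomedin family, and the title of the series links its loss to the cell cycle of fat cells.

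The adipocyte markers were bright on every array. The mean of 27 mature adipocyte genes lay between 9.85 and 10.75 on the log2 scale. Macrophage markers were also well expressed, with means of 21 genes of 8.39 ± 0.11 in sc wild type, 8.03 ± 0.24 in sc knockout, 9.91 ± 0.24 in g wild type and 8.88 ± 0.42 in g knockout (SD, n = 5). Arrays that stood apart were present in all groups. The mean of 15 hepatocyte genes was above 7 on 8 arrays, that of 15 lymphocyte genes above 7.5 on 3 arrays of sc, and that of 18 skeletal muscle genes above 7 on 4 arrays of sc. These are markers of other cell types, so the arrays read more than the fat cells that the labels name. The source of this other RNA is not given in the labels and was not tested. In bulk RNA, fewer cells of a type and less RNA per cell cannot be told apart.

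**Figure D1:**
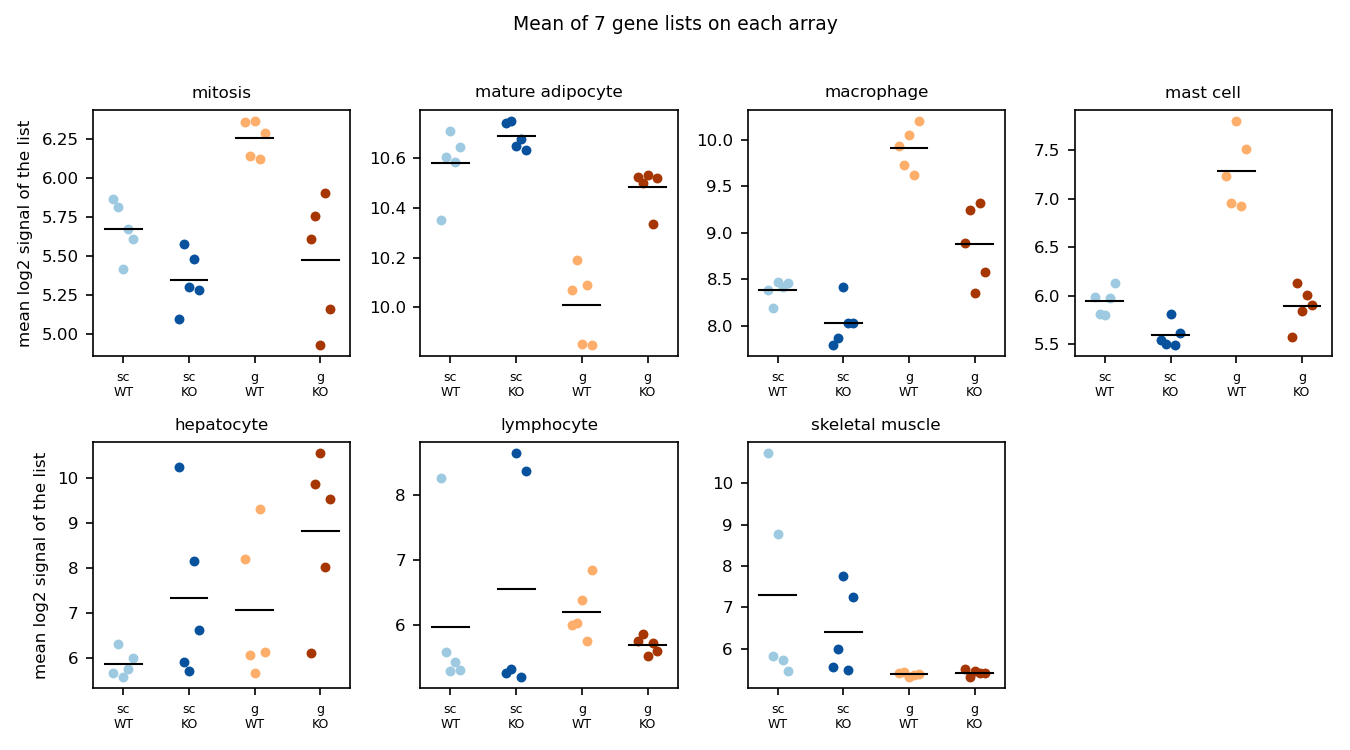
Mean log2 signal of 7 gene lists on each of the 20 arrays, by depot and genotype; points are arrays and bars are group means. The mast cell and macrophage means of the 5 g wild-type arrays lie above those of every other array. The hepatocyte means are high on several arrays, among them all but 1 of g knockout. The lymphocyte and skeletal muscle means are high on a few sc arrays.

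Olfm2 itself fell by 1.66 in sc and fell by 0.80 in g in the knockout samples (log2). The sc wild-type arrays read 4.28, 5.25, 5.02, 5.21 and 4.62 and the sc knockout arrays 3.49, 2.98, 3.58, 2.67 and 3.36. The g wild-type arrays read 4.30, 4.60, 4.08, 4.54 and 4.17 and the g knockout arrays 3.43, 3.61, 3.36, 3.56 and 3.72. Within each depot the genotypes did not overlap. The drop in g was smaller by 0.86 (SE 0.26, 95% interval 0.31 to 1.41), a difference that did not pass the test over all genes (adjusted p = 0.187 by limma). An exact permutation test of the same difference, two-sided, with an sc and a g array joined by the number in their titles, gave an unadjusted p = 0.0238; the labels do not say that a shared number means a shared mouse, and the test is not given for genes chosen by this difference. Olfm2 is a dim probe: 27.6% of genes were dimmer in sc wild type and 3.4% in sc knockout, so signal near the floor of the array limits both drops. Where in the gene the probe lies relative to the deleted part is not stated in the labels.

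Of 19505 genes tested, 15 had a knockout effect that differed between depots at an adjusted p under 0.05, here called (0.0769% of genes; 13% of genes, or 2537, had an unadjusted p under 0.05). The change from wild type to knockout was more positive in g for 8 of them (0.041%) and more negative in g for 7 (0.0359%). Of the 15 genes, 12 were called for the knockout effect in g alone, 2 in sc alone and 1 in both depots, and 10 had estimates of opposite sign in the depots. At an adjusted p under 0.1 there were 44 genes (0.226%), and 40 of these were called in g alone. One called gene, an olfactory receptor, was counted and is not described. Col6a5 was just inside the threshold (adjusted p = 0.0483) and Lmo1 just outside (adjusted p = 0.0541).

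**Figure D2:**
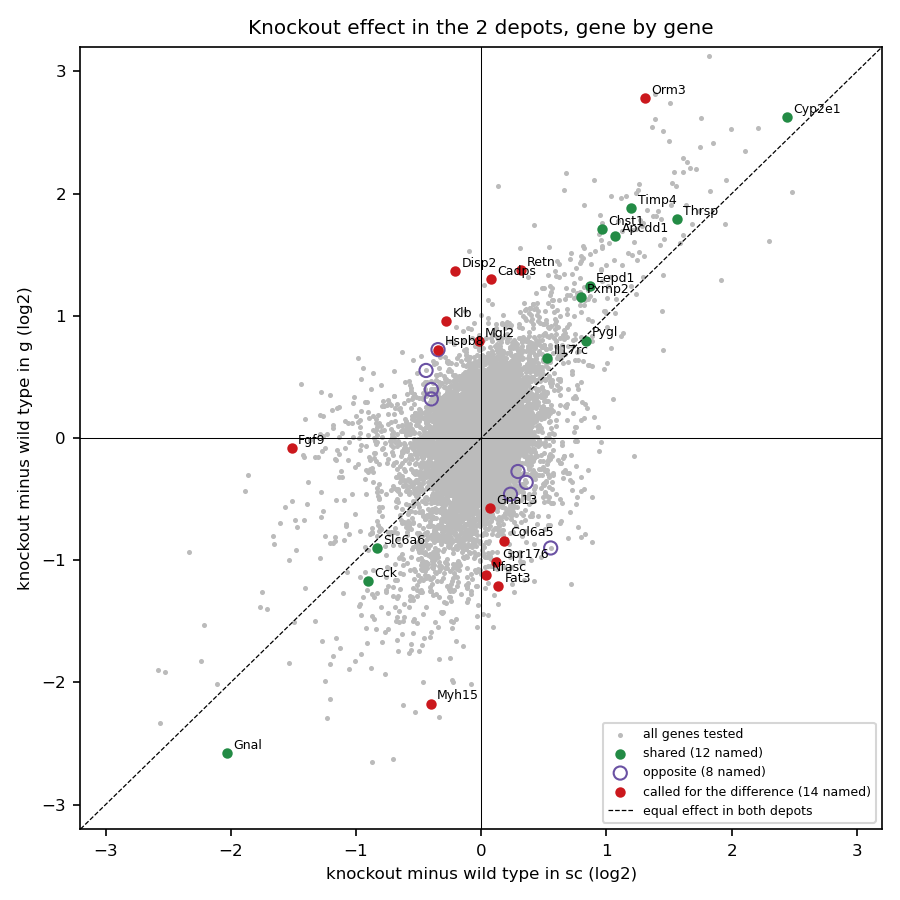
Knockout minus wild-type difference in sc (horizontal axis, log2) and in g (vertical axis, log2) for all 19505 genes, each point a gene; the dashed line marks equal effects. The named genes with a called difference lie off the line, most of them near 0 in sc. The named genes called in both depots with the same sign, picked for having no called difference, mostly lie nearer to it.

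Fgf9, a secreted fibroblast growth factor, fell in sc. It read 6.61, 7.18, 7.06, 7.0 and 7.05 in sc wild type and 5.13, 5.87, 5.28, 5.85 and 5.20 in sc knockout, with no overlap. In g it read 5.96, 6.15, 5.93, 6.26 and 6.08 in wild type and 5.64, 6.23, 5.91, 6.42 and 5.75 in knockout, and these overlapped. It fell by 1.51 in sc (SE 0.17; adjusted p = 0.000152), while the g difference was -0.08 (adjusted p = 0.819), which makes the difference of the effects 1.43 (SE 0.23; adjusted p = 0.0179). Fgf9 was the only one of the 14 named genes that was called in sc and not in g.

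Klb encodes beta-Klotho, the co-receptor through which FGF21 acts on fat cells. It read 7.38, 7.60, 7.25, 7.48 and 7.16 in g wild type and 8.58, 8.30, 8.48, 8.07 and 8.22 in g knockout, with no overlap, and rose there by 0.96 (SE 0.14; adjusted p = 0.000245). In sc the arrays read 8.22, 8.70, 8.68, 8.36 and 8.68 in wild type and 8.46, 8.58, 8.0, 8.29 and 7.92 in knockout, and overlapped, with a difference of -0.28 (adjusted p = 0.499). The g knockout samples therefore read at the level of the sc samples, and the g wild-type samples were the low group. The effects differed by 1.24 (95% interval 0.83 to 1.65; adjusted p = 0.0179).

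Retn and Orm3, both for secreted proteins, rose more in g than in sc. Retn encodes resistin, a hormone that mouse adipocytes secrete. In g it read 10.69, 10.92, 10.36, 10.83 and 10.14 in wild type and 11.87, 11.99, 11.99, 11.82 and 12.15 in knockout, a rise of 1.38 (SE 0.13; adjusted p = 6.26e-06) with no overlap. In sc the means were 11.84 ± 0.17 and 12.15 ± 0.16 and the difference 0.32 (adjusted p = 0.374), so the effects differed by 1.06 (SE 0.19; adjusted p = 0.0239). Orm3, an orosomucoid of the acute phase, was the gene called in both depots. It read 4.02, 4.44, 3.57, 4.16 and 4.23 in sc wild type and 5.53, 5.0, 5.80, 5.40 and 5.22 in sc knockout, against 4.21, 3.94, 3.67, 4.06 and 3.76 in g wild type and 6.65, 6.47, 7.25, 6.66 and 6.54 in g knockout. It rose by 1.30 in sc and by 2.78 in g, and the difference of 1.48 (SE 0.25) was called (adjusted p = 0.0179). The wild-type arrays of the depots overlapped, and the g knockout arrays were above every sc knockout array. The other 2 measured orosomucoid genes had estimates in the same direction that were not called for the difference, 0.89 for Orm1 (adjusted p = 0.191) and 0.54 for Orm2 (adjusted p = 0.447).

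Cadps, Disp2 and Mgl2 rose in g and were not called in sc. Cadps, which primes dense-core vesicles for calcium-triggered release, read 4.35, 4.97, 4.91, 5.02 and 4.96 in g wild type and 6.0, 6.0, 6.18, 6.42 and 6.09 in g knockout, and rose by 1.30 there, against 0.08 in sc (difference 1.22, SE 0.20, adjusted p = 0.0179). Disp2, of the family that releases Hedgehog ligands, was dim and rose in g from 3.92 ± 0.22 to 5.29 ± 0.55, while its sc difference was -0.21 (difference 1.58, adjusted p = 0.0374). Mgl2, a C-type lectin of macrophages and dendritic cells, rose in g from 7.0 ± 0.15 to 7.79 ± 0.12 and had a difference of -0.02 in sc (difference of the effects 0.81, adjusted p = 0.0374).

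Hspb8, a small heat shock protein that hands misfolded proteins to autophagy, had estimates of opposite sign. In sc it read 9.11, 9.03, 9.23, 8.95 and 8.99 in wild type and 8.56, 9.03, 8.80, 8.77 and 8.43 in knockout, a difference of -0.35 that was not called (adjusted p = 0.273). In g it read 7.94, 8.27, 7.94, 8.10 and 7.89 in wild type and 8.54, 8.93, 9.08, 8.46 and 8.75 in knockout, a rise of 0.72 (adjusted p = 0.000847). In sc a single knockout array lay within the wild-type range, and in g the genotypes did not overlap. The difference of 1.07 (SE 0.18, 95% interval 0.70 to 1.44) was called (adjusted p = 0.0179).

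The promoter windows of Orm3 and Hspb8 are shown because they are the genes among the 14 whose window holds the letters of a C/EBP-type motif, the binding motif of a family of adipocyte and acute-phase transcription factors. The windows are the 250 bases before the annotated start, from RefSeq on build GRCm38.p6, written 5′ to 3′ on the gene's strand, with the motif TTGCNNAA in capitals on either strand. Orm3 lies on chr4:63355908-63356157, plus strand, and its motif begins 121 bases before the start. Hspb8 lies on chr5:116422865-116423114, minus strand, and its motif begins 63 bases before the start.
Orm3: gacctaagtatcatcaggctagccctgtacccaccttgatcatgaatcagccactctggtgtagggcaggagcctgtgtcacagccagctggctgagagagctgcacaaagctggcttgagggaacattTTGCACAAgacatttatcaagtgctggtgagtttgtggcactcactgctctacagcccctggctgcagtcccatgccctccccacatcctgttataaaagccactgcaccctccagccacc
Hspb8: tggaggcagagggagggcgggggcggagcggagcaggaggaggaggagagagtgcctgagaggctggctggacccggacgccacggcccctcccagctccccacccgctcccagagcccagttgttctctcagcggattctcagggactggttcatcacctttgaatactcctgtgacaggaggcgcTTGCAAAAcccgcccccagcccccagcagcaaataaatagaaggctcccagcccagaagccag
The motif was present in 2 of 13 genes with an entry (Disp2 had no entry) and in 9.56% of all 32851 windows in the table. Orm3 and Myh15 also held TATAAA, which 12.4% of windows hold, and Cadps, Mgl2 and Nfasc held CCAAT, which 33.8% hold. These are matches of letters, not measured binding.

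The named genes with a more negative effect in g, among them adhesion, receptor and motor genes, fell in g and were not called in sc. Gpr176, an orphan G protein-coupled receptor, had the smallest p of all genes. It read 5.89, 5.68, 6.06, 5.62 and 6.02 in g wild type and 4.79, 4.76, 4.90, 4.93 and 4.80 in g knockout, with no overlap, and fell by 1.02 (SE 0.11; adjusted p = 3.97e-05). In sc it read 4.80, 4.73, 4.68, 4.55 and 4.74 in wild type and 4.42, 5.07, 4.66, 4.89 and 5.05 in knockout, and overlapped (0.12, adjusted p = 0.79). The effects differed by -1.14 (SE 0.16; adjusted p = 0.0177). In sc wild type only 24.5% of genes were dimmer than Gpr176, 22.4% than Myh15 and 19.8% than Fat3, which limits how far a fall there could be read. Cadps and Disp2 were as dim (18.9% each), and for Orm3 the share was 14.6% in sc and 12.8% in g wild type.

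Fat3, an atypical cadherin, fell in g from 5.75 ± 0.22 to 4.54 ± 0.33 and differed by 0.13 in sc (difference of the effects -1.35, adjusted p = 0.0179). Nfasc, the adhesion molecule neurofascin, fell in g from 6.51 ± 0.27 to 5.39 ± 0.23 and differed by 0.03 in sc (-1.15, adjusted p = 0.0179). Gna13, a G protein alpha subunit that activates RhoA through guanine nucleotide exchange factors, had the smallest difference among the called genes. It read 8.90, 8.85, 8.94, 8.96 and 8.84 in g wild type and 8.35, 8.44, 8.20, 8.50 and 8.14 in g knockout, and fell by 0.57, against 0.07 in sc (-0.64, SE 0.11, adjusted p = 0.0179). Its wild-type g arrays varied by an SD of 0.05.

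Myh15, a myosin heavy chain, had the most negative difference among the called genes. It read 7.29, 6.87, 7.28, 6.90 and 6.52 in g wild type and 4.95, 5.39, 4.20, 5.29 and 4.16 in g knockout, and fell by 2.17 with no overlap. The sc means were 4.56 ± 0.16 and 4.16 ± 0.25 (-0.40, adjusted p = 0.544), and the effects differed by -1.77 (95% interval -2.41 to -1.14; adjusted p = 0.0223). Col6a5, a chain of collagen VI, had the widest gap between depots in wild type. It read 9.32, 9.21, 9.10, 9.22 and 9.20 in g wild type and 8.0, 8.39, 8.15, 8.57 and 8.72 in g knockout, while the sc means were 5.56 ± 0.06 and 5.74 ± 0.31. It fell by 0.84 in g and its effects differed by -1.02 (SE 0.19).

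**Figure D3:**
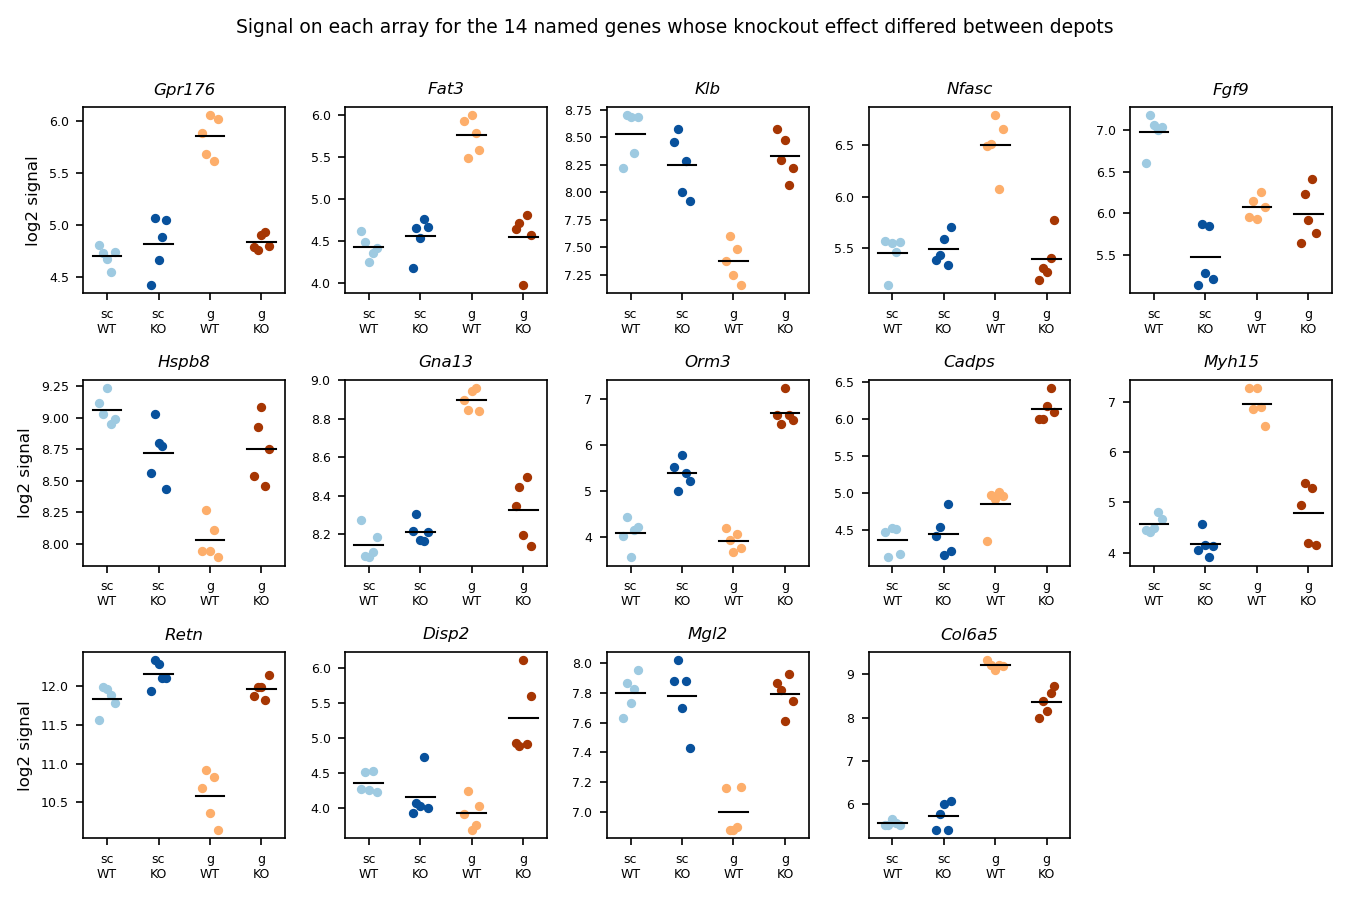
Log2 signal on each array for the 14 named genes with a called difference, by depot and genotype; points are arrays and bars are group means. In most panels the g wild-type arrays stand apart from the other 3 groups, as for Klb, Gpr176 and Mgl2, while Fgf9 is high in sc wild type and Orm3, Cadps and Disp2 are high in g knockout.

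In 10 of the 14 genes (71.4%) the g knockout mean lay nearer to the sc wild-type mean than the g wild-type mean did, which was so for 58.3% of all genes and for 77.5% of the 2200 genes called in g. Gpr176 had means of 4.70 in sc wild type, 4.82 in sc knockout, 5.85 in g wild type and 4.84 in g knockout. For Mgl2 these means were 7.80, 7.78, 7.0 and 7.79 in the same order. The gap between depots and the knockout effect in g share the g wild-type arrays, so the one is no independent measure of the other.

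Several calls depended on single arrays, while the estimates kept their sign in each such fit. Over the 20 fits without an array each, Gpr176, Fat3, Nfasc and Orm3 were called in every fit. Klb, Fgf9, Hspb8, Gna13 and Cadps lost the call only without sc307WT, with differences of 1.20, 1.41, 1.03, -0.62 and 1.18 and adjusted p from 0.0507 to 0.0564. Myh15 lost it without sc287WT, sc307WT, g286 WT or g307 WT (differences of -1.73, -1.75, -1.69 and -1.69). Retn lost it without any of 8 arrays (0.95 to 1.14 over the 20 fits, adjusted p up to 0.0704), namely sc287WT, sc300KO, sc307WT, sc308WT, sc320KO, g306 KO, g307 WT and g320 KO. Disp2 kept its call only without sc286WT, sc318KO, g287 WT, g300 KO, g306 KO, g317 KO or g318 KO (1.37 to 1.72, adjusted p up to 0.0969). Mgl2 kept it only without sc286WT, sc306KO, sc318KO, sc320KO, g286 WT, g309 WT or g317 KO (0.73 to 0.87, up to 0.0969), and Col6a5 only without sc286WT, sc300KO, sc318KO, g318 KO or g320 KO (-1.11 to -0.93, up to 0.121). The count of called genes was 4 without sc307WT, 41 without sc286WT and 24 without g308 WT.

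Marker levels of immune cells moved with these results. The mast cell mean was 5.94 ± 0.14 in sc wild type, 5.59 ± 0.13 in sc knockout, 7.29 ± 0.37 in g wild type and 5.89 ± 0.21 in g knockout. When the fit took the macrophage mean as a term, 0 genes were called for the difference (1265 at an unadjusted p under 0.05), and when it took the mast cell mean, a choice made after the data were seen, also 0 (671 unadjusted). The estimates of the 14 genes kept their sign: with the macrophage covariate Fgf9 was 1.54, Orm3 1.27, Gpr176 -1.05 and Klb 0.93, and with the mast cell covariate these were 1.32, 1.31, -0.84 and 0.65. Nfasc was -0.56 and Retn 0.55 with the mast cell covariate. Both covariates are themselves lower in the g knockout samples, so they and the groups cannot be fully told apart. Without the 4 arrays high in skeletal muscle genes, again chosen after the data were seen, 1 gene was called, and Fgf9 was 1.37, Klb 1.10 and Orm3 1.75. A fit without the 8 arrays high in hepatocyte genes leaves 1 g knockout array, which is assumed to vary like the other groups. Its estimates were 1.12 for Fgf9, 1.61 for Klb, 1.60 for Orm3, -1.36 for Gpr176 and -1.56 for Col6a5. Without the 3 arrays high in lymphocyte genes 3 genes were called, and Fgf9 was 1.37, Klb 1.12, Orm3 1.57 and Gpr176 -1.14.

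**Figure D4:**
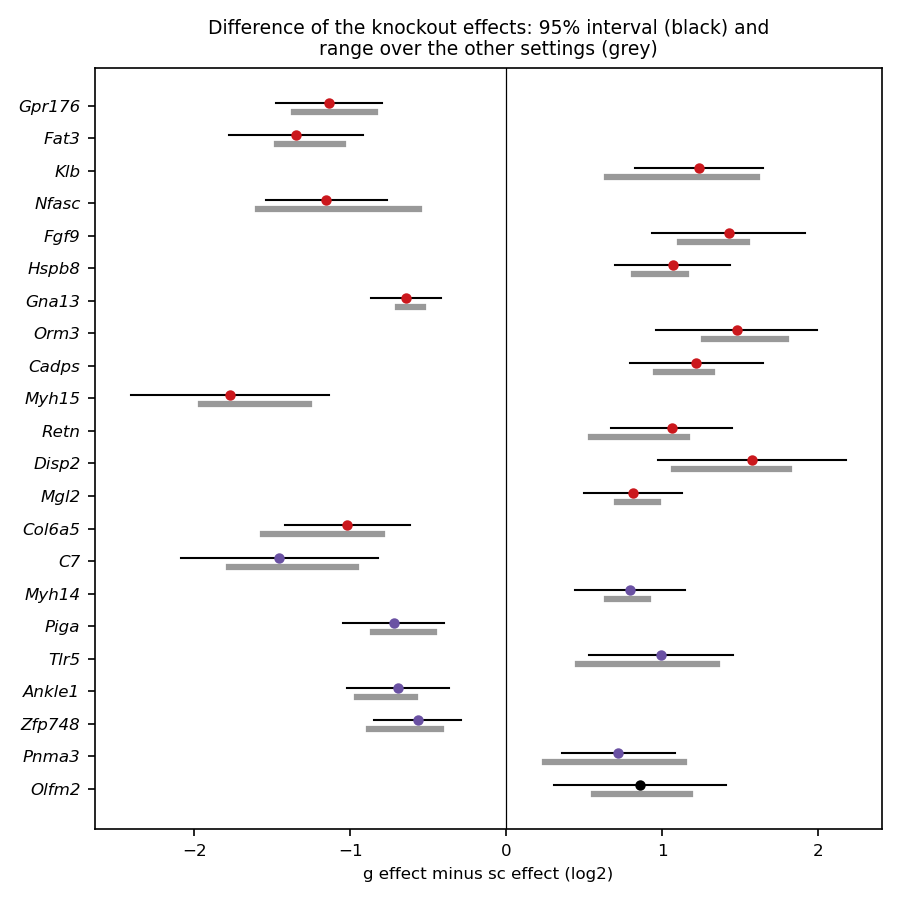
Difference of the knockout effects, g minus sc (horizontal axis, log2), for the 14 called genes (red), 7 further genes with opposite effects (purple) and Olfm2 (black). Dots are estimates, black lines their 95% intervals and grey bars the range over the alternative settings; every grey bar lies on the side of 0 of its dot.

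Some genes had estimates of opposite sign. At an unadjusted p under 0.05 in each depot there were 892 genes, and 58 of them (6.5%; 0.297% of all genes) had opposite signs, 42 lower in sc and higher in g and 16 the other way. Of these 58 genes, 2 were called for the difference and 5 had an adjusted p under 0.1. At an adjusted p under 0.05 in each depot, 78 genes were called in both and 0 had opposite signs. The C7 gene, a complement protein of the membrane attack complex, had the widest opposite difference among the 8 genes with the smallest p. It read 8.23, 8.74, 8.33, 8.97 and 9.12 in sc wild type and 9.20, 8.69, 9.61, 9.16 and 9.50 in sc knockout (0.55, adjusted p = 0.315), and 11.00, 11.53, 10.96, 11.76 and 11.44 in g wild type and 10.13, 10.32, 10.29, 10.40 and 11.05 in g knockout (-0.90, adjusted p = 0.00872). The genotypes overlapped in both depots, and the difference of -1.45 was not called (95% interval -2.08 to -0.82; adjusted p = 0.07). It was called without sc306KO (adjusted p = 0.0418) or g320 KO (adjusted p = 0.0326).

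Other genes of opposite sign had smaller differences that were not called. Tlr5, the receptor for bacterial flagellin, had values of -0.44 in sc and 0.55 in g (difference 0.99, adjusted p = 0.101). Myh14, a nonmuscle myosin heavy chain, had -0.40 and 0.40 (0.80, adjusted p = 0.0822; called without sc286WT, adjusted p = 0.0353). Piga, which acts in the first step of making the glycosylphosphatidylinositol anchor, had 0.36 and -0.36 (-0.72, adjusted p = 0.085). Ankle1, a DNA-cutting enzyme with ankyrin repeats, had 0.23 and -0.46 (-0.69, adjusted p = 0.104; called without sc308WT, adjusted p = 0.0419). The zinc finger gene Zfp748 had 0.29 and -0.27 and Pnma3, of the paraneoplastic antigen family, -0.40 and 0.32.

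More genes were called in g than in sc, but most of these were not shown to differ between depots, and the order of the counts turned in some fits. In sc 132 genes were called (0.677%), 58 higher (0.297%) and 74 lower (0.379%) in knockout. In g 2200 were called (11.3%), 977 higher (5.01%) and 1223 lower (6.27%). With the macrophage mean as a term 75 genes were called in sc and 1 in g, and with the mast cell mean 104 and 1. Both means were themselves lower in g knockout than in g wild type. These terms and the g groups cannot be fully told apart, so the turned order does not show a smaller effect in g. In the fit of all arrays without these terms, the 78 genes called in both are 59.1% of the sc calls and 3.55% of the g calls, and all 78 had the same sign. Of the 2122 genes called in g alone, 12 were called for the difference and 1208 had an unadjusted p under 0.05 for it. For 1433 of the 2122 the 95% interval of the difference lay within 1 log2 unit either side of 0, and for 232 within 0.5. In 1706 of the 2122 the sc estimate had the sign of the g estimate, and in 2102 it was the smaller in size. Picking genes called in g and not in sc by itself favours a smaller sc estimate and a low p for the difference. The counts of 2102 and 1208 are therefore no measure of depot dependence. Of the 54 genes called in sc alone, 2 were called for the difference, 47 had the same sign in g and 31 had an interval within 1 log2 unit. The median half-width of the interval was 0.38, so for a typical gene the interval of a smaller difference reached 0. A call over all genes needed more, and the called difference nearest to 0 was -0.64 (Gna13). Across genes, which are not independent replicates, the sc estimates had an SD of 0.25 and the g estimates one of 0.35.

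Shared effects were those called in both depots with the same sign and without a called difference, 77 genes (0.395%), 41 higher and 36 lower in knockout. The 95% interval of the difference lay within 1 log2 unit of 0 for 62 of the 77 and within 0.5 for 22, and 13 had an unadjusted p under 0.05 for the difference. The widest difference among them was that of Olfm2.

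Thrsp, Pygl and Cyp2e1, which serve lipid, glycogen and xenobiotic metabolism, were higher in knockout in both depots. Thrsp, the lipogenic protein Spot 14, read 9.23, 9.53, 9.64, 9.12 and 9.26 in sc wild type and 10.64, 10.83, 11.56, 10.38 and 11.18 in sc knockout, and 9.75, 9.77, 9.10, 9.43 and 9.37 in g wild type and 10.97, 11.25, 11.76, 10.87 and 11.55 in g knockout. It rose by 1.56 in sc and by 1.80 in g, with no overlap in either depot, and the difference of 0.23 had an interval of -0.37 to 0.84. Pygl, the liver form of glycogen phosphorylase, rose by 0.84 and 0.80 (difference -0.04, interval -0.44 to 0.37). Cyp2e1, a cytochrome P450 that is abundant in liver, rose by 2.44 and 2.62, with an interval of the difference from -0.91 to 1.27 that leaves room for unequal effects. On the 2 sc knockout arrays with the lowest hepatocyte means, sc306KO and sc317KO, Cyp2e1 read 10.36 and 11.29, above all sc wild-type arrays (7.70 to 9.04). On g300 KO, the g knockout array with the lowest hepatocyte mean, it read 10.61, above all g wild-type arrays (7.62 to 9.75). These are readings of single arrays, and sc317KO was also high in lymphocyte and skeletal muscle genes. The mean of the 15 hepatocyte genes was 5.87 ± 0.30 in sc wild type, 7.32 ± 1.89 in sc knockout, 7.07 ± 1.59 in g wild type and 8.81 ± 1.76 in g knockout, and 6 of the 8 arrays high in these genes were knockout. With this mean as a term in the fit, the count of shared genes was 43. The part of hepatocyte RNA in the rises of Cyp2e1 and Pygl was not tested.

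Of the other 9 named shared genes 6 rose and 3 fell in both depots. Timp4, an inhibitor of matrix metalloproteinases, rose by 1.20 in sc and by 1.88 in g (difference 0.68, interval 0.22 to 1.14, adjusted p = 0.202). Chst1, which sulfates keratan sulfate, rose by 0.96 and 1.71 (0.75, interval 0.23 to 1.27), and Apcdd1, a WNT inhibitor, by 1.07 and 1.65 (0.58, interval 0.15 to 1.0). For these 3 genes the interval lay above 0 although the difference was not called. Gnal, the stimulatory G protein alpha subunit of olfactory neurons, fell by 2.03 in sc and fell by 2.58 in g (-0.55, interval -1.51 to 0.40). Slc6a6, the taurine transporter, fell by 0.83 and fell by 0.90 (-0.07, interval -0.44 to 0.30), and Cck, cholecystokinin, fell by 0.90 and fell by 1.17 (-0.27, interval -0.74 to 0.20). The peroxisomal membrane protein gene Pxmp2 rose by 0.79 and 1.15, Eepd1 by 0.87 and 1.24, and the interleukin-17 receptor subunit Il17rc by 0.53 and 0.65, the last with an interval of -0.13 to 0.39. Of 32 collagen and matrix genes 0 were called higher in either depot. Called lower were 2 in sc and 11 in g, against 0.379% and 6.27% of all genes. At an unadjusted p under 0.05, 12 were lower in each depot, against 1124 of all 19505 genes in sc and 2362 in g. The median difference of the list was 0.08.

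Mitosis and DNA replication genes fell in g. A list of D and E cyclins, cyclin-dependent kinases, their inhibitors, RB and E2F genes did not move one way. The mitosis list included Ccna2, Ccnb1, Ccnb2 and Cdk1, so cyclins and their kinases were divided between the lists. The median effect of 51 mitosis genes was -0.35 in sc and -0.77 in g, and their median difference was -0.51, against 0.01 in sc, 0.02 in g and 0.01 for the difference over all genes. In g 38 of the 51 were called lower and 0 higher, against 6.27% and 5.01% of all genes. In sc 0 were called by limma, with 13 lower at an unadjusted p under 0.05 (5.76% of all genes in that direction). The difference was below 0 for 48 of the 51, 16 had an unadjusted p under 0.05 for it (6.31% of all genes in that direction), and 0 were called. Ccna2, cyclin A2, had the smallest p, with means of 6.28 ± 0.30 in sc wild type, 6.05 ± 0.25 in sc knockout, 7.28 ± 0.19 in g wild type and 6.11 ± 0.52 in g knockout (difference -0.94, adjusted p = 0.18). Sgo1, which protects cohesin at centromeres, had a difference of -0.62 and Incenp, of the chromosomal passenger complex, of -0.71 (adjusted p = 0.231 for each). The mitosis mean was 6.25 ± 0.12 on the g wild-type arrays, above the 5.67 ± 0.18 of sc wild type, and 5.47 ± 0.41 on the g knockout arrays.

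DNA replication genes copy the genome in S phase. Of 42 such genes 18 were called lower in g (6.27% of all genes) and 0 were called in sc. In sc 4 were lower at an unadjusted p under 0.05 (5.76% of all genes), and the median difference was -0.31. Pcna, the sliding clamp of DNA polymerase, had means of 9.37 and 9.27 in sc wild type and knockout and of 10.22 and 9.33 in g, a difference of -0.79 (adjusted p = 0.155). Dnmt1, which copies DNA methylation to the new strand, had a difference of -0.62, and Rrm1, a subunit of ribonucleotide reductase, of -0.78 (adjusted p = 0.155 and 0.171). Of 22 measured cyclin, kinase, inhibitor, RB and E2F genes 2 rose and 3 fell in g by limma, and 0 were called in sc. In sc 2 were higher and 1 lower at an unadjusted p under 0.05, against 4.58% and 5.76% of all genes. The median difference of the list was -0.01. When the fit took the macrophage mean as a term, the median difference of the mitosis genes was -0.05 and of the replication genes -0.16, and for the mast cell mean -0.19 and -0.14. Without the 4 arrays high in skeletal muscle genes these medians were -0.51 and -0.37.

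Genes of the mature fat cell went the other way. Of 27 such genes 15 were called higher in g and 2 in sc, against 5.01% and 0.297% of all genes. In both depots 0 were called lower, and the median effect was 0.04 in sc and 0.38 in g. The difference was above 0 for 26 of the 27, and 13 had an unadjusted p under 0.05 for it (6.7% of all genes in that direction). Retn was called and the other 26 were not. Slc2a4, the insulin-responsive glucose transporter GLUT4, rose in g from 6.82 ± 0.25 to 8.05 ± 0.28 and had means of 7.80 and 8.28 in sc (difference 0.75, adjusted p = 0.149). Dgat1, which completes triglyceride synthesis, had a difference of 0.65 (adjusted p = 0.149). Adipoq, adiponectin, had values of 0.04 in sc and 0.36 in g. The median difference of the list was 0.32, and 0.22 with the macrophage and 0.01 with the mast cell covariate.

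Metabolic lists were shifted in the same direction. Of 21 genes of branched-chain amino acid breakdown 17 were called higher in g and 3 in sc, against 5.01% and 0.297% of all genes. All 21 estimates were above 0 in both depots, and the median difference was 0.32. Hibch, of valine breakdown, had a difference of 0.60 and Acat1, of isoleucine and ketone breakdown, of 0.35 (adjusted p = 0.236 and 0.23). Oxidative phosphorylation genes had a median effect of 0.0 in sc and of 0.19 in g, with 8 of 36 called higher in g. Of the 36 differences 34 were above 0, with 0 called by limma and 12 at an unadjusted p under 0.05 (6.7% of all genes in that direction). Among 16 genes of fatty acid synthesis 6 rose in g, and 2 rose and 2 fell in sc. Those that fell were Slc25a1, the mitochondrial citrate carrier, which fell by 0.62 in sc (adjusted p = 0.0086) and had -0.04 in g, and Me1, malic enzyme, which fell by 0.46 in sc (adjusted p = 0.045) and had 0.17 in g. Neither difference was called (0.58, adjusted p = 0.155, and 0.63, adjusted p = 0.123).

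**Figure D5:**
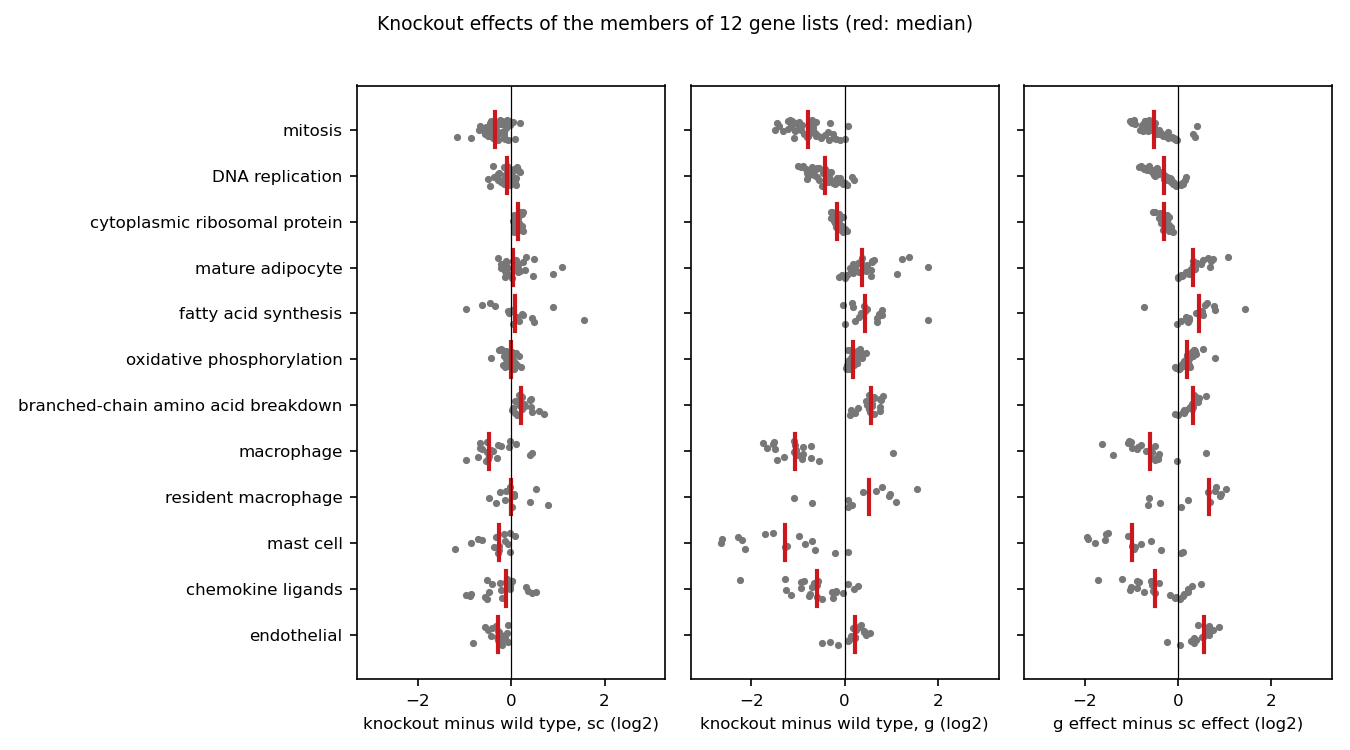
Knockout effects of the members of 12 gene lists in sc (left), in g (middle) and the difference g minus sc (right), on log2 axes; grey points are genes and red bars medians. The mitosis, DNA replication, macrophage and mast cell medians lie further below 0 in g than in sc, and those of mature adipocyte and metabolic lists lie above 0 in g.

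Mast cell and macrophage genes fell in g. Of 15 mast cell genes 13 were called lower in g (6.27% of all genes) and 0 were called in sc. In sc 5 were lower at an unadjusted p under 0.05 (5.76% of all genes), and the median difference was -0.98. Fcer1a, the alpha chain of the high-affinity IgE receptor, had means of 5.24 and 5.20 in sc wild type and knockout and of 6.77 and 5.22 in g (difference -1.51, adjusted p = 0.0541). Cma1, mast cell chymase, had a difference of -1.55 (adjusted p = 0.063). Of 21 macrophage genes 19 fell and 1 rose in g, and 1 fell in sc, where 11 were lower at an unadjusted p under 0.05. The median difference was -0.61. Cd14, the co-receptor for lipopolysaccharide, differed by -1.04 (adjusted p = 0.063). Lymphocyte and skeletal muscle genes, high on a few sc arrays, had median differences of -1.09 and 1.02. Of their 15 and 18 members 0 were called or at an unadjusted p under 0.05.

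Genes of resident and of lipid-associated macrophages were also listed. Of 12 genes of resident macrophages 6 were called higher and 2 lower in g, against 5.01% and 6.27% of all genes. In sc 0 were called (1 higher and 1 lower at an unadjusted p under 0.05, against 4.58% and 5.76% of all genes). The median effect was 0.0 in sc and 0.53 in g. Retnla rose in g from 9.55 ± 0.44 to 11.11 ± 0.30 (difference 1.02, adjusted p = 0.149) and Cbr2 had a difference of 0.79 (adjusted p = 0.172). The 10 genes of lipid-associated macrophages had medians of -0.95 in sc and -1.08 in g and a median difference of 0.04. Of the 10, 6 were called lower in g and 0 in sc, where 8 were lower at an unadjusted p under 0.05 (5.76% of all genes). Mgl2 is a member of the resident macrophage list, and the part of cell makeup in its difference was not tested.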

How the data were processed

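Expression was measured on 20 arrays of 4 groups of 5. Per the labels' protocols, Qiagen extraction was followed by labelling of 100 ng of RNA with biotin by the GeneChip WT PLUS kit. Per the submitters' processing notes the authors used RMA and limma (versions not given in the sources used here), and the values they deposited are on the log2 scale. The design text names another gene, PKP2, for the sc arrays, while every label gives Olfm2, and the labels were used. Of 28846 probes 6640 controls were left out, 2634 had no gene symbol here, and of several probes of a gene the brightest on average was kept. A mean was fitted for each group in R 4.3.3 with limma 3.58.1 (16 residual degrees of freedom), the difference (g knockout - g wild type) - (sc knockout - sc wild type) was tested two-sided, and p-values were Benjamini-Hochberg adjusted over 19505 genes. Error is the moderated SE or the SD of 5 arrays, and the number of arrays limits the precision. Named genes were the called ones, the 8 opposite genes with the smallest difference p, the 12 shared genes with the smallest larger depot p, Olfm2, and 3 of each list; Adipoq was named after its value was seen. Names with Gm or Rik and receptors of smell or taste were passed over. Members, lists and rules were chosen with earlier results of these data known, so no list was tested. The fit was tested on simulated data. Alternatives covered the block by title number, scaling, filters, variance models, covariates and arrays left out.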

Additional observations from a re-analysis of the deposited data

Results flagged for a closer look

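The knockout effect differed between depots for 14 named genes by the test of that difference itself: -1.14 for Gpr176, -1.35 for Fat3, 1.24 for Klb, -1.15 for Nfasc, 1.43 for Fgf9, 1.07 for Hspb8, -0.64 for Gna13, 1.48 for Orm3, 1.22 for Cadps, -1.77 for Myh15, 1.06 for Retn, 1.58 for Disp2, 0.81 for Mgl2 and -1.02 for Col6a5 (g minus sc, log2). A single array stood far from the other 4 of its group in 10 of 164 groups examined, where chance gives about 8.2. These were Fat3 on g317 KO (3.97, others 4.57 to 4.81), Nfasc on sc287WT (5.14, others 5.46 to 5.57), Orm3 on g317 KO (7.25, others 6.47 to 6.66), Cadps on g286 WT (4.35, others 4.91 to 5.02) and Disp2 on sc318KO (4.72, others 3.93 to 4.07). The others were Ankle1 on g318 KO (5.79), Timp4 on sc306KO (9.45), Pygl on sc308WT (7.81), the lymphocyte mean of sc286WT (8.27, others 5.30 to 5.59) and the mature adipocyte mean of g318 KO (10.34, others 10.50 to 10.53).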

How the results depend on the processing

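The count of genes called for the difference, 15, was 14 to 20 with quantile normalization, median centring, a filter on dim probes, all probes or probe means, and 14 with a hepatocyte covariate. It was 28 with a trended and robust prior, 30 with array weights, 1 with 3 covariates (hepatocyte, lymphocyte, skeletal muscle), 1 without hepatocyte-high arrays (which leaves 1 g knockout array, assumed to vary like the others), 3 without lymphocyte-high arrays, 2 with the spread estimated within each depot, 0 with the macrophage or mast cell covariate and 1 without skeletal-muscle-high arrays. Arrays of the same title number had residuals correlated by -0.461 to 0.142 (median 0.0111), with 3 of 10 numbers matching their own best. This cannot decide whether the numbers pair samples, because arrays high in hepatocyte, lymphocyte or skeletal muscle genes may lower the correlation. In knockout, the lipid-associated macrophage means put the numbers in the same order in both depots, and in wild type they did not. The general macrophage and the mast cell means put the knockout numbers in unlike orders in the depots. The order in a single list therefore cannot decide the pairing either. The main fit did not pair samples by number. As a random replicate block the numbers gave 32 calls (all 15 among them), and as a fixed replicate block 5 (4 among the 15). Leaving out an array or a title number gave 0 to 41 calls for the difference, 50 to 197 in sc, 1348 to 2357 in g and 30 to 106 shared; the 0 came without sc307WT and g307 WT (1664 genes at an unadjusted p under 0.05) and without sc309WT and g309 WT (1845). The sc count, 132, was 233 with array weights, 83 with the hepatocyte, 28 with 3 covariates, 75 with the macrophage covariate and 45 without skeletal-muscle-high arrays. The g count, 2200, was 1188 with the hepatocyte covariate, 43 without hepatocyte-high arrays and 1 with the macrophage or mast cell covariate. The shared count, 77, was 135, 43 and 22 with array weights, the hepatocyte and the 3 covariates, 10 without hepatocyte-high arrays, 1 with the macrophage or mast cell covariate and 35 without skeletal-muscle-high arrays. Apart from the arrays and terms lost, the cause was not tested. The 14 named differences kept their sign in every setting in which they were fitted, and were called in 14 (Col6a5) to 39 (Gpr176) of 47 settings (46 for Disp2).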

Other observations

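Hox genes of the C cluster, which mark position along the body axis, were among the genes higher in knockout in g. Of 21 measured Hox genes 5 were called higher in g by limma (5.01% of all genes). In sc 0 were called and 0 had an unadjusted p under 0.05, and the median difference was 0.21. Hoxc8 rose in g from 8.58 ± 0.39 to 9.52 ± 0.13 and had means of 8.99 ± 0.21 and 9.21 ± 0.34 in sc (difference 0.72, adjusted p = 0.222). Hoxc4 and Hoxc5 rose in g by 0.65 and 0.56, with differences of 0.84 and 0.65 (adjusted p = 0.149 and 0.165).

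Of 23 chemokine genes 8 were called lower in g by limma (6.27% of all genes) and 0 were called in sc. In sc 5 were lower at an unadjusted p under 0.05, as were 5.76% of all genes. Ccl3, which draws in monocytes, fell in g from 8.96 ± 0.51 to 6.72 ± 0.71 (difference -1.71, adjusted p = 0.132), and Cxcl14 fell in g from 7.54 ± 0.17 to 6.26 ± 0.54 (difference -1.19, adjusted p = 0.104). The median difference of the list, -0.49, was -0.08 without the lymphocyte-high arrays and -0.03 without the skeletal-muscle-high arrays. All 28 measured cytoplasmic ribosomal protein genes had a difference below 0, with a median of -0.30 and 0 called. At an unadjusted p under 0.05 there were 2, near the share of all genes in that direction (6.31%). The median was -0.09 without the lymphocyte-high arrays. Of 17 endothelial genes 16 had a difference above 0, with a median of 0.56 and 0 called by limma. Of the 17, 7 were higher at an unadjusted p under 0.05 (6.7% of all genes in that direction). The median of the endothelial genes was 0.19 with the macrophage and -0.29 with the mast cell covariate. Hk2, hexokinase 2, rose in g by 0.50 and had -0.10 in sc (difference 0.60, adjusted p = 0.118).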
